A study of Mus musculus with 6 samples.

Results

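The serpins of clade B are a family of protease inhibitors, and 10 of their genes were described here in mouse keratinocytes after a rise of the microRNA miR-148a: Serpinb1a, Serpinb2, Serpinb3a, Serpinb5, Serpinb6a, Serpinb8, Serpinb9, Serpinb10, Serpinb11 and Serpinb12. These members were chosen by symbol, and each gene was read from its RefSeq transcript with the highest base mean, the authors' mean normalized count over the libraries. The table holds 28 clade B serpin genes in all, and 11035 genes of any kind had an adjusted p-value, 8 of the 10 members among them. The keratinocytes were primary epidermal cells of wild-type C57BL/6 pups, taken from postnatal day 1 to 3 and grown in medium with 0.05 mM calcium. One group (3 libraries) received a control small RNA and the other (3 libraries) pro-miR-148a at 200 nM, which raises miR-148a, and RNA was taken 48 h after transfection. All cells of both groups were thus transfected, and the labels do not say whether the libraries of a group came from separate cultures or animals, so the p-values may measure technical spread. The titles of 2 pro-miR-148a libraries carry the same sample number, 1, with different replicate numbers, and what they share is not stated. No value per library could be used, so levels below are base means over both groups, errors are standard errors (SE) of log2 fold changes as the authors gave them, and the depth of each library is unknown.

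A serpin offers an exposed loop to a protease, which cuts it and is then trapped in an inactive complex, so each inhibitor molecule is used once. Clade B serpins lack a classical secretion signal and mostly act inside the cell, where they hold in check proteases that leak from lysosomes or granules or that process other proteins. Keratinocytes make several of them, some mainly in the differentiated layers of the epidermis. In the mouse their genes lie in a pair of clusters, on chromosome 1 and chromosome 13, that grew by duplication.

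The sequence that was added comes first, since the direction of every value below rests on it. Mature miR-148a strands are given 5′ to 3′ from RefSeq (GRCm38.p6, chromosome 6, minus strand, chr6:51269829-51269850 for the guide strand and chr6:51269867-51269888 for the passenger strand), with the seed, bases 2 to 8, in capitals.
mmu-miR-148a-3p: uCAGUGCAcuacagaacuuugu
mmu-miR-148a-5p: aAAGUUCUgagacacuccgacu
The guide strand pairs through its seed with TGCACTG in a transcript, and with TGCACTGA at a site of 8 bases. Which group is the numerator of the fold changes is not stated by the authors' deposited table. With the signs of the authors' deposited table, the median log2 fold change was 0.11 over the 406 genes whose longest 3' UTR (the untranslated end of a transcript) carries TGCACTGA. It was -0.01 over the 6255 genes with no site of at least 6 bases. Rock1, a kinase gene known as a miR-148a target, had 0.26 ± 0.09 SE (adjusted p = 0.0106) per the authors' deposited table. Since a microRNA lowers its targets, all signs were turned here, and a positive log2 fold change means higher with miR-148a. If that reading is wrong, every direction below turns with it.

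No searched 3' UTR of a clade B serpin, the longest of each gene, carried such a site. Of the 27 clade B genes with an annotated 3' UTR of at least 20 bases, all 10 members included, 0 held TGCACTG, and 0 held the shorter forms that pair with 6 bases of the guide strand or the site of the passenger strand, AGAACTT. Among the 9871 tested genes with a UTR, 36.6% carried at least 1 of the guide-strand forms. The serpin UTRs were shorter, with a median of 446 bases (26 to 3159) against 1128 bases over those tested genes. Serpinb8 had the longest of them, 3159 bases, and Serpinb9 had 2109 bases. Neither is the UTR of the transcript whose value is given below: that of Serpinb8 belongs to its transcript with a base mean of 11.0. The search covers these letters in these UTRs and no other kind of pairing.

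Of the 10 members, 3 fell (Serpinb1a, Serpinb3a and Serpinb11), 1 rose (Serpinb9), 4 did not pass the test at an adjusted p of 0.05 per the authors' deposited table (Serpinb2, Serpinb5, Serpinb8 and Serpinb10), Serpinb6a had too low a count for an adjusted p, and Serpinb12 was listed at 0. Over all 11035 tested genes 33.5% passed, 16.8% lower and 16.7% higher with miR-148a, so that 4 of 8 tested members is a share above the background of all genes but rests on few genes. The median log2 fold change of the 8 tested members was -0.55, beside -0.01 for all tested genes per the authors' deposited table. Over all tested genes 1855 fell and 1844 rose. Among the 6420 with a base mean of at least 100, 1499 fell and 1693 rose, so calls under that level leaned lower. Of the 8 tested members 4 have base means under 100, and the part of this lean in their median was not tested. Calls depend on the count: among all genes whose base mean was 1000 or more, 55.8% passed, 42.1% of those from 100 to 1000, 15.5% of those from 10 to 100 and 3.09% of those under 10. The members fall into these classes as 2, 2, 2 and 2 genes, of which 1, 2, 1 and 0 passed. All 4 members that passed have a single transcript in the table, while none of the 6 members with 2 to 4 transcripts passed. Over all tested genes with a single transcript, 3328 of 8509 passed. Of all transcripts of genes with several transcripts, 73.9% were listed at 0 per the authors' deposited table, against 34.5% of those of genes with 1, and the part of this in the members' calls was not tested.

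**Figure D1:**
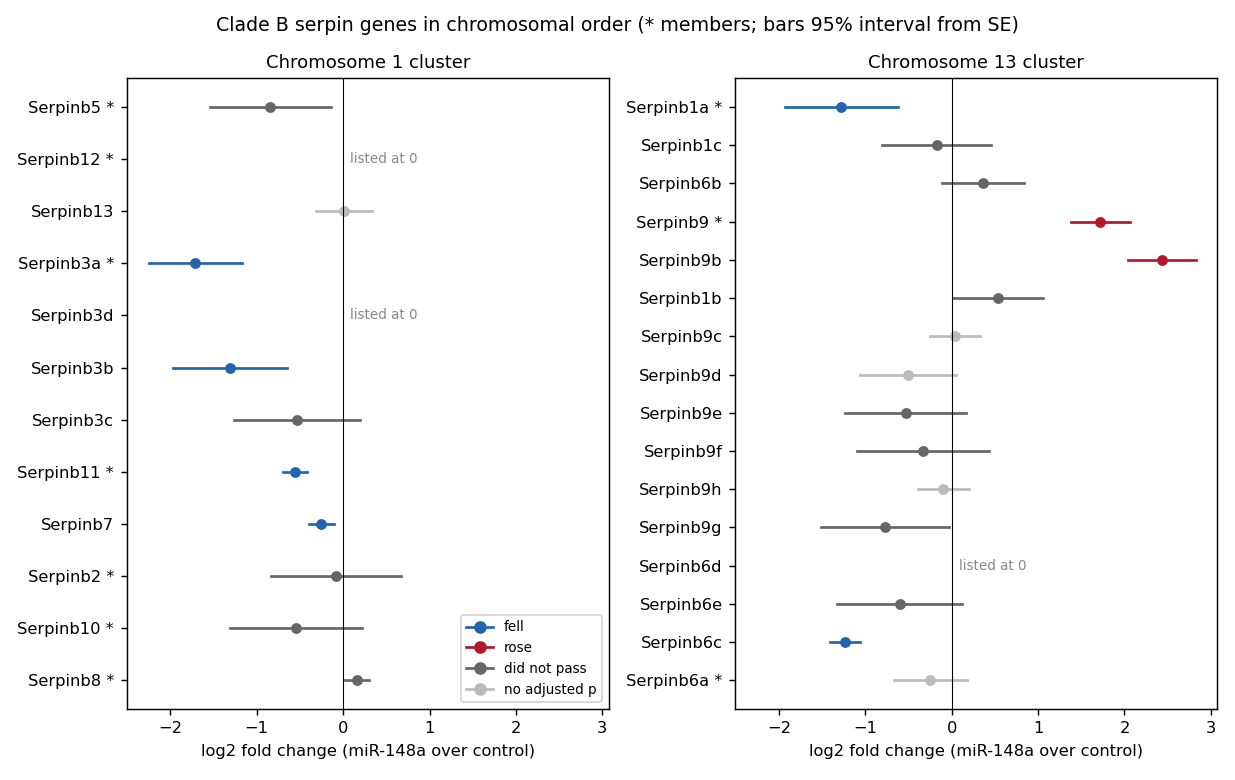
Log2 fold change (x axis, miR-148a over control as read here) of each clade B serpin gene in chromosomal order, one panel per cluster; points are the authors' values and bars the 95% interval from their SE, with members marked by an asterisk. On chromosome 1 the 4 genes that passed are all to the left, Serpinb3a farthest at -1.71, and on chromosome 13 Serpinb9 and Serpinb9b lie far to the right at 1.72 and 2.43.

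The inhibitors of leukocyte serine proteases went in opposite directions. Serpinb9, which blocks granzyme B and shields cells from cytotoxic lymphocytes, rose 3.30-fold (log2 fold change 1.72 ± 0.18 SE, 95% interval 1.38 to 2.07, adjusted p = 6.45e-21, NM_009256, base mean 198) per the authors' deposited table. It had the 61st highest log2 fold change of the 11035 tested genes. Serpinb1a, an inhibitor of neutrophil elastase, cathepsin G and proteinase 3, fell 2.43-fold (log2 fold change -1.28 ± 0.33 SE, 95% interval -1.93 to -0.63, adjusted p = 0.000671, NM_025429, base mean 247) per the authors' deposited table. Its standard error was more than double the median of genes with base means from 100 to 1000, 0.15, so its size is less certain than that of Serpinb9. Of the proteases themselves, Elane, Ctsg, Gzmb and Gzma were listed at 0, which does not measure absence, and Prtn3 had a base mean of 0.344 per the authors' deposited table. Leukocytes also make both serpins. Of 8 immune markers, 5, with the pan-leukocyte gene Ptprc (3 transcripts) among them, were listed at 0, which again does not measure absence. The macrophage genes Lyz2 and C1qa had base means of 43.8 and 19.4 and log2 fold changes of -2.63 ± 0.34 SE and -2.72 ± 0.39 SE per the authors' deposited table, and their part in the values of Serpinb1a was not tested. In bulk RNA, fewer cells of a type and less RNA per cell cannot be told apart.

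Serpinb3a, a mouse counterpart of the human squamous cell carcinoma antigens, had the most negative value among the members. Those antigens include an inhibitor of lysosomal cysteine proteases. The value of Serpinb3a is given next. This gene fell 3.27-fold (log2 fold change -1.71 ± 0.28 SE, 95% interval -2.25 to -1.17, adjusted p = 7.44e-09, NM_009126) per the authors' deposited table, the 123rd lowest of all tested genes. Its level was modest, with a base mean of 82.3, or 51.1 per kb of transcript. The copies of this gene beside it were weaker still. Serpinb3b fell 2.48-fold (-1.31 ± 0.34 SE, adjusted p = 0.000534, base mean 42.1) per the authors' deposited table. Serpinb3c did not pass (-0.53 ± 0.37 SE, adjusted p = 0.306, base mean 7.37) and Serpinb3d was listed at 0 per the authors' deposited table. The coding sequences of Serpinb3a and Serpinb3b were identical at 93.0% of aligned bases, and 15.2% of the 50-base stretches of the Serpinb3a transcript occur in a transcript of another gene, most often Gm8080. Serpinb3b shared 14.7% of its stretches with other genes, most often Serpinb3c. Reads of these stretches could be split among such genes, so the values of both are uncertain to that extent.

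The sequences upstream of Serpinb3a and Serpinb3b are printed because these genes fell together. Each holds the 250 bases before the annotated start (RefSeq, GRCm38.p6, minus strand, chr1:107052304-107052553 and chr1:107161115-107161364), with capitals for the longest stretch shared without a mismatch, 41 bases.
Serpinb3a: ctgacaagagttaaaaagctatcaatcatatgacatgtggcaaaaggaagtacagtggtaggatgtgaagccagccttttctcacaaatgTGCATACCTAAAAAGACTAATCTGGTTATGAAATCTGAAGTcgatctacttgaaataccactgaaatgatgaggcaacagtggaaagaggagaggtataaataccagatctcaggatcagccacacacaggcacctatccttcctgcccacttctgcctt
Serpinb3b: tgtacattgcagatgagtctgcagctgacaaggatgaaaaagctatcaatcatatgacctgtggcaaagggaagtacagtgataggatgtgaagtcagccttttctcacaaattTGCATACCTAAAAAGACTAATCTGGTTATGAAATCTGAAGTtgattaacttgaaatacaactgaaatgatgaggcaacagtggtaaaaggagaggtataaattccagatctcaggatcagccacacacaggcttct
Over 226 aligned bases the pair was identical at 93.4%, close to the identity of their coding sequences. Both hold TATAAA, a form of the TATA box, which 12.4% of the 32851 RefSeq promoter windows of that length hold on either strand. Of the 26 clade B genes with a window 8 hold it, and of the 9 members with a window 3 do. Serpinb7, which fell, is among these 8 genes. So are Serpinb3c, Serpinb1c and Serpinb2, which did not pass, and Serpinb3d and Serpinb12, which had no adjusted p. TATAAA was thus not confined to the genes that fell. Upstream of Serpinb9 and Serpinb9b, which rose together, identity over 226 aligned bases was 68.1% and the longest shared stretch was 13 bases.

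Among the members thought to act on trypsin-like and related proteases, the abundant ones, Serpinb11 and Serpinb8, changed by less than 1.5-fold. Of all tested genes, 21.4% had a larger change than Serpinb11 and 68.1% a larger one than Serpinb8. Serpinb11, whose mouse protein inhibits trypsin-like proteases, fell 1.47-fold (log2 fold change -0.55 ± 0.07 SE, 95% interval -0.69 to -0.41, adjusted p = 9.97e-14, NM_025867, base mean 3975) per the authors' deposited table. It was the member with the smallest change among those that passed, and the one measured most precisely. Serpinb8, an inhibitor of furin-type and trypsin-like proteases that is needed for cohesion of human epidermis, had a log2 fold change of 0.16 ± 0.07 SE (95% interval 0.02 to 0.30, NM_011459, base mean 4167) and did not pass (adjusted p = 0.0687) per the authors' deposited table. That interval is not adjusted for the number of genes tested, which is why it can lie above 0 beside such a p, and it holds no change larger than 1.23-fold. The other transcript of Serpinb8, NM_001159748, had a base mean of 11.0 and a log2 fold change of the opposite sign, -0.22 ± 0.39 SE, per the authors' deposited table. Serpinb6a, an inhibitor of cathepsin G and thrombin-like proteases, had only 1 of its 4 transcripts above 0, with a base mean of 0.944 and no adjusted p per the authors' deposited table. Serpinb12, an inhibitor of trypsin-like proteases made in surface epithelia, had both of its transcripts listed at 0 per the authors' deposited table, which is not a measurement of absence.

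Serpinb2, also called plasminogen activator inhibitor 2, did not change by the test. Its log2 fold change was -0.08 ± 0.38 SE (95% interval -0.83 to 0.67, adjusted p = 0.910, NM_011111, base mean 17.1) per the authors' deposited table, an interval wide enough to hold changes of more than 1.5-fold either way. Its second transcript had -0.15 ± 0.39 SE at a base mean of 6.02 per the authors' deposited table. The enzymes it inhibits were better counted. Plau, the urokinase gene, rose 1.63-fold (log2 fold change 0.71 ± 0.10 SE, adjusted p = 1.66e-12, base mean 2238), and Plat, the tissue plasminogen activator gene, had 0.31 ± 0.14 SE without passing (adjusted p = 0.0726) per the authors' deposited table. Of 10 genes of the plasminogen system and the metalloproteinases it activates, 4 fell, 4 rose and 2 did not pass. Their median log2 fold change was 0.12 beside -0.01 for all genes. Over all tested genes 33.5% passed, and 42.1% to 55.8% in the classes with base means of 100 or more, where most of these 10 lie. The urokinase receptor gene Plaur fell 1.39-fold and the plasminogen receptor gene Plgrkt rose 1.39-fold, while the metalloproteinase genes Mmp13 and Mmp3 fell 15.7-fold and 6.38-fold, per the authors' deposited table.

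Serpinb5 and Serpinb10 were too weakly counted for a firm value. Serpinb5, or maspin, a serpin that does not inhibit proteases and is abundant in normal epithelia, had a log2 fold change of -0.84 ± 0.36 SE (95% interval -1.54 to -0.14, adjusted p = 0.0573, NM_001360853) per the authors' deposited table, just outside the threshold. The base mean of that transcript was 4.59, and the other 2 transcripts of the gene were listed at 0. Serpinb10, or bomapin, known from blood-forming cells, had -0.54 ± 0.39 SE (adjusted p = 0.323, base mean 7.38) per the authors' deposited table. Of the 50-base stretches of that transcript, 13.4% also occur in a transcript of another gene, mostly of its neighbour Serpinb2.

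**Figure D2:**
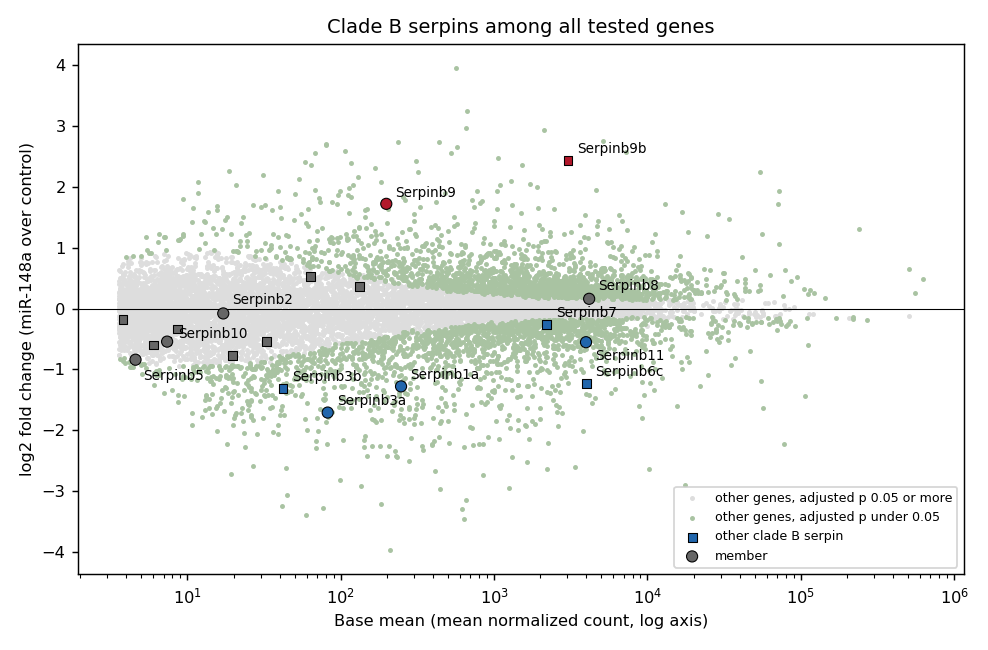
Log2 fold change (y axis, miR-148a over control as read here) against base mean (x axis, log scale) for all 11035 tested genes, with members as circles and other clade B serpins as squares, coloured blue where they fell, red where they rose and grey where they did not pass. Serpinb9 and Serpinb9b stand at 1.72 and 2.43 above most genes of their level, and Serpinb8 and Serpinb11 lie near each other in level at base means of 4167 and 3975.

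Levels spanned more than 3 orders of magnitude among the members. Per kb of transcript, Serpinb11 (1907) and Serpinb8 (1389) stood highest, followed by Serpinb1a (129), Serpinb9 (58.4), Serpinb3a (51.1), Serpinb2 (8.59), Serpinb10 (6.18), Serpinb5 (1.72) and Serpinb6a (0.571), in base mean per kb computed from the authors' deposited table. No spread between libraries is known for these levels, so whether neighbours in this order differ could not be tested. The low rank of Serpinb2, Serpinb10, Serpinb5 and Serpinb6a came with shared sequence. Of the 50-base stretches of the transcripts shown, 95.5%, 85.5%, 93.3% and 93.8% also occur in another listed transcript of the same gene. For the 2 transcripts of Serpinb12, both at 0, the shares were 97.0% and 93.0%. Yet NM_011459 of Serpinb8 shared 98.4% with the longer transcript of its gene and had the highest base mean of all members. The way reads shared by several transcripts were counted was not given in the sources used here. Among defining keratinocyte genes, Krt5, with 1 transcript, had a base mean of 630448 while Krt14, with 3 transcripts, had 40.3. All 8 transcripts of Trp63 were listed at 0 per the authors' deposited table. Shared stretches were not computed for these genes, and the part of shared sequence in any of these levels was not tested.

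**Figure D3:**
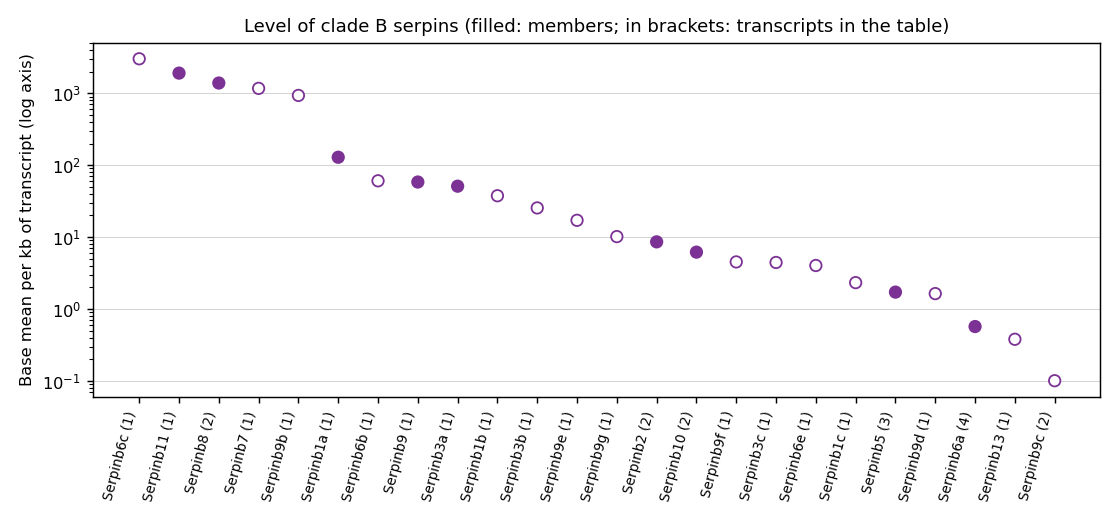
Base mean per kb of transcript (y axis, log scale) for each clade B serpin gene with a value above 0 and a known length, ordered by level, filled points for members and the number of transcripts in the table in brackets. Serpinb6c, Serpinb11, Serpinb8, Serpinb7 and Serpinb9b lead, from 3018 to 934 per kb, and Serpinb6a, with 4 transcripts, sits at 0.571.

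The other 18 clade B serpin genes give the family around the members. Of the 12 with an adjusted p, 3 fell, 1 rose and 8 did not pass, a share of 33.3% beside the 33.5% of all tested genes. Serpinb9b, the neighbour and closest listed copy of Serpinb9, rose 5.40-fold (log2 fold change 2.43 ± 0.20 SE, 95% interval 2.04 to 2.82, adjusted p = 1.83e-32, base mean 3037) per the authors' deposited table, the 16th highest value of all tested genes. Its coding sequence matched that of Serpinb9 at 86.5% of aligned bases, but only 0.388% of the 50-base stretches of Serpinb9 occur in another gene, so few reads of that length could fit both. Serpinb6c, a copy of Serpinb6a (87.2% of aligned coding bases), fell 2.35-fold (-1.23 ± 0.09 SE, adjusted p = 6.96e-42, base mean 4004) per the authors' deposited table. Serpinb7, whose loss in people causes a thickening of the skin of palms and soles, fell 1.19-fold (-0.26 ± 0.07 SE, adjusted p = 0.00250, base mean 2208) per the authors' deposited table. Serpinb13, an inhibitor of cathepsins made in differentiated epidermis, had a base mean of 0.610 and no adjusted p per the authors' deposited table.

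Copies of one gene did not all share a direction by value. Around Serpinb1a, Serpinb1b had a log2 fold change of 0.53 ± 0.27 SE (adjusted p = 0.119, base mean 63.8) and Serpinb1c -0.17 ± 0.32 SE (adjusted p = 0.758), neither passing, per the authors' deposited table. Coding sequences of Serpinb1a and Serpinb1b were identical at 90.7% of aligned bases. Of the 8 Serpinb9 genes, 2 rose and 3 of the remaining ones were tested without passing: Serpinb9e (-0.53 ± 0.36 SE), Serpinb9f (-0.33 ± 0.39 SE) and Serpinb9g (-0.77 ± 0.38 SE) per the authors' deposited table. Serpinb9f and Serpinb9g were nearly the same gene, with 98.7% of aligned coding bases identical, and reads could not be assigned to 1 of them with ease. Serpinb9c, Serpinb9d and Serpinb9h had base means of 0.192 to 2.05 and no adjusted p. Among the Serpinb6 genes, Serpinb6b (0.36 ± 0.24 SE, base mean 133) and Serpinb6e (-0.60 ± 0.37 SE, base mean 6.02) did not pass and Serpinb6d was listed at 0 per the authors' deposited table. By contrast, the members are distant relatives, with 57.3% to 69.0% of aligned coding bases identical over their 45 pairs.

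By position, the chromosome 1 cluster held 12 genes, of which 9 were tested, 4 fell (Serpinb3a, Serpinb3b, Serpinb11 and Serpinb7) and none rose. The chromosome 13 cluster held 16 genes, of which 11 were tested, 2 fell (Serpinb1a and Serpinb6c) and 2 rose (Serpinb9 and Serpinb9b, which are neighbours). The shares that passed, 44.4% on chromosome 1 and 36.4% on chromosome 13, lie near the 33.5% of all tested genes (16.8% lower, 16.7% higher). Median log2 fold changes of the clusters were -0.54 and -0.33, beside -0.01 for all genes. The difference between the clusters and the part of low counts in these medians were not tested.

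Promoter windows were searched for 3 short motifs, chosen after the fold changes were known. TGANTCA, which covers the binding motif of AP-1 factors and variants of it, lay in the 250 bases before the start of 6 of the 9 members with a window. Counted by window, 7 of 12 member windows held it, the same Serpinb2 site being counted in overlapping windows. Of all 32851 windows 6.75% held it. All 6 members lie in the chromosome 1 cluster, as does Serpinb7, the other clade B gene of 26 that holds the motif. The strict AP-1 form, TGAGTCA or its reverse complement, was found upstream of Serpinb8 and Serpinb7 among those 26, and in 4.46% of all windows. The stretches around the motif are shown for Serpinb8, Serpinb7 and both sites of Serpinb11, since these are the well-counted genes that hold it, with the motif in capitals (RefSeq, GRCm38.p6, plus strand, chr1:107589971-107590001, chr1:107422632-107422662, chr1:107362121-107362151 and chr1:107362226-107362256).
Serpinb8: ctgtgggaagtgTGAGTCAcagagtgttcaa
Serpinb7: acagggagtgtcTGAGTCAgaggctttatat
Serpinb11, first site: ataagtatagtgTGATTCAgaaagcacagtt
Serpinb11, second site: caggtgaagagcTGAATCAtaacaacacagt
The motif in Serpinb8 starts 23 bases before the annotated start, that in Serpinb7 45 bases before it, and those in Serpinb11 181 and 76 bases before it. Of these genes Serpinb7 and Serpinb11 fell and Serpinb8 did not pass. TTCNNNGAA, the core of STAT binding sites, was found upstream of Serpinb2 and Serpinb6a among the members and in 7.02% of all windows. A match is a stretch of letters only, and binding was not measured.

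Proteases that clade B serpins are known or thought to meet, and kallikreins and membrane proteases of the epidermis, were taken as a list of 29 genes. Of the 18 with an adjusted p, 7 fell, 4 rose and 7 did not pass, with a median log2 fold change of -0.14 beside -0.01 for all genes. These 11 calls stand beside 33.5% of all genes, and beside 42.1% to 55.8% of genes in the classes with base means of 100 or more, where most of the list lies. The lysosomal cysteine proteases, of the kind that Serpinb3a-type serpins inhibit, were lower: Ctsb fell 1.89-fold (-0.92 ± 0.06 SE, base mean 35081), Ctsl 1.52-fold (-0.61 ± 0.06 SE, base mean 110698), Ctsk 1.65-fold (-0.73 ± 0.14 SE) and Ctsf 1.97-fold (-0.98 ± 0.15 SE) per the authors' deposited table. Ctsh did not pass and Ctss was listed at 0. Of the kallikreins on the list, Klk5, Klk7 and Klk13 fell 6.23-fold, 4.70-fold and 2.06-fold, and Klk8 did not pass, per the authors' deposited table. The membrane-anchored Prss8, Tmprss11f and St14 rose 1.44-fold, 1.40-fold and 1.14-fold per the authors' deposited table. Outside the list the families were mixed, since Klk10 had a log2 fold change of 1.93 (adjusted p = 3.39e-221) and the membrane proteases Tmprss11b and Tmprss13 had -0.55 and -0.41 (adjusted p = 5.1e-09 and 7.27e-10) per the authors' deposited table. Furin, which Serpinb8 can inhibit, had a base mean of 27.5 and a log2 fold change of 0.10 ± 0.34 SE without passing per the authors' deposited table.

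Serpins of other clades were taken as a list of 17 genes. Of these 7 were tested, of which 2 fell, 1 rose and 4 did not pass (median log2 fold change -0.39), and 8 were listed at 0. These calls stand beside 33.5% of all tested genes. Serpina12, or vaspin, an inhibitor of the kallikrein Klk7, fell 5.35-fold (-2.42 ± 0.19 SE, adjusted p = 8.74e-36, base mean 230.2) per the authors' deposited table. Serpina3n, an inhibitor of leukocyte proteases, fell 3.12-fold at a base mean of 34.5, and Serpine2, which inhibits thrombin and urokinase, rose 1.25-fold (adjusted p = 0.0125) per the authors' deposited table. The authors' deposited table of gene ontology categories counts 5 changed genes among 18 with serine-type endopeptidase inhibitor activity (p = 0.226 for over-representation, adjusted p = 1), with the cut for changed genes not given in the sources used here.

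**Figure D4:**
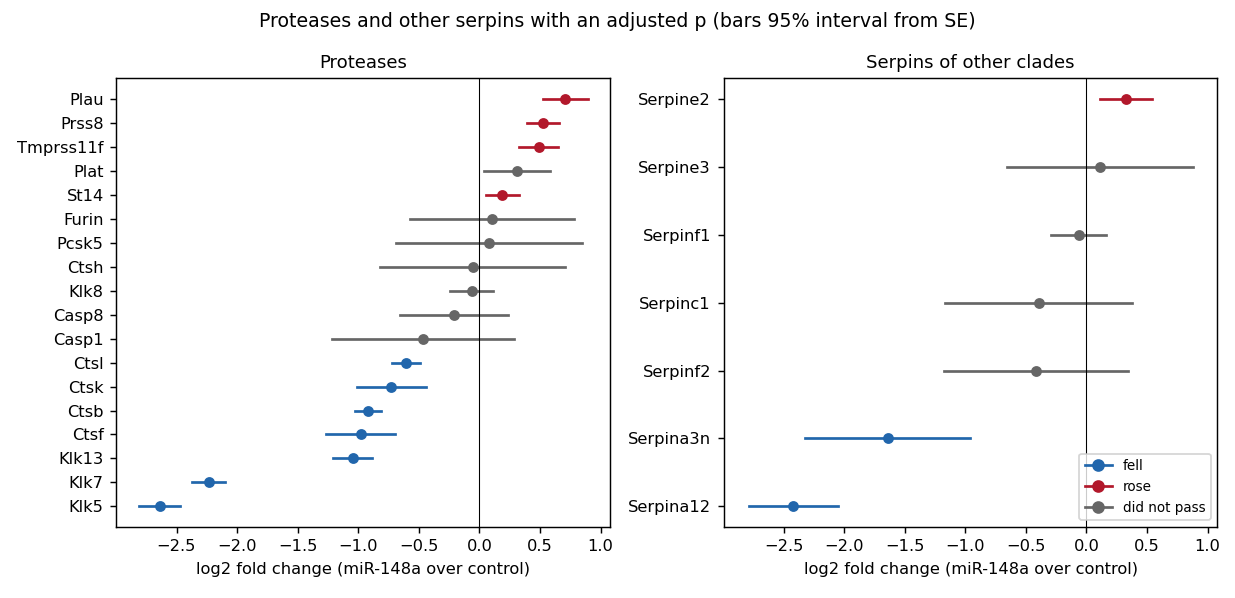
Log2 fold change (x axis, miR-148a over control as read here) of the tested genes of the protease list (left) and of the serpins of other clades (right), with bars for the 95% interval from the authors' SE. Klk5 and Klk7 lie at -2.64 and -2.23 and Serpina12 at -2.42, while Plau at 0.71 is the highest of the proteases.

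Markers of other cells moved as well, to be read beside the 33.5% of all tested genes that passed. In the classes with base means of 100 or more that share was 42.1% to 55.8%. Of 8 tested fibroblast markers 5 fell and none rose, with Col1a1 at -0.42 ± 0.10 SE and a base mean of 11119 per the authors' deposited table. Of 4 tested melanocyte markers 1 fell, and Dct and Pmel had base means of 6493 and 8101 without passing. Of 9 tested keratinocyte markers 5 fell, the differentiation keratins Krt1 (2.49-fold) and Krt10 (1.84-fold) among them, and Krt5 rose 1.41-fold per the authors' deposited table. The 4 endothelial markers gave 1 tested gene, Kdr, which rose 6.65-fold (log2 fold change 2.73 ± 0.18 SE, adjusted p = 1.08e-48, base mean 438) per the authors' deposited table. Pecam1 and Tek, with 4 and 3 transcripts, were listed at 0, which does not measure absence. Cdh5 had a base mean of 0.332. The part of these cell types and of differentiation in the values of the serpins was not tested.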

How the data were processed

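RNA sequencing compared 3 control and 3 pro-miR-148a libraries, grouped by their titles. The submitters' processing notes list DESeq2 and the build mm9 without their roles. Aligner, counter and annotation were not given in the sources used here. For each of 42885 RefSeq transcripts the deposited table holds, per the file headers, a base mean (a signal: the normalized count averaged over libraries), a log2 fold change, its SE, a Wald score and p-values. The deposited GO table holds p-values and numbers of genes per category. Depth per library is unknown, so no counting interval is given. The deposited Wald score equalled log2 fold change over SE within 1.69e-07, and the adjusted p-values equalled a Benjamini-Hochberg adjustment over 11757 transcripts within a relative difference of 0.00885. Transcripts under a base mean of 3.56 had no adjusted p. The largest SE was 0.393. At the lowest counts it was smaller, 0.146 for Serpinb9c (base mean 0.192) and 0.215 for Serpinb6a (base mean 0.944). The authors' setting was not given in the sources used here. Without a pull of fold changes toward 0 at low counts, an SE would grow as counts fall, and here it did not. Sizes and intervals of weakly counted genes therefore do not compare with those of well-counted ones, and such intervals may be too narrow.

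Symbols came from RefSeq (GRCm38.p6, 42734 matched), with each gene read from its tested transcript of highest base mean. Calls use the deposited adjusted p at 0.05, since no library values could be used for a new test. Intervals are 95% from the SE. Lengths, UTRs and 50-base stretches came from GENCODE M21 transcripts matched by RefSeq accession, and identities from global alignments (Biopython 1.88). As builds differ, coordinates are given only for RefSeq sequences. The members, lists and tests were chosen with earlier results of these data known. Named genes were all members, all clade B serpins with a fold change, and of the protease, other-clade serpin, plasminogen and chromosome 1 flank lists up to 6 genes each with the largest changes past the threshold at a base mean of at least 100; others (Lyz2, C1qa, Ptprc, Elane, Ctsg, Prtn3, Gzmb, Gzma, Ctsh, Ctss, Klk8, Prss8, Tmprss11f, St14, Plat, Ctsl, Klk10, Tmprss11b, Tmprss13, Serpina3n, Furin and the markers) were named after their values were seen. Alternatives were another threshold, a base mean minimum of 100, a fold minimum of 1.5, recentred fold changes, any tested transcript and, added after seeing the data, genes with 1 transcript. One gene was taken out of the other-clade and plasminogen lists and is not reported here, so their counts are without it. The recentred test was checked on simulated data.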

Additional observations from a re-analysis of the deposited data

How the results depend on the processing

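No paired analysis was possible because the deposited table has no column per library, and for the same reason leaving out each replicate was not run. Under each of the 6 alternatives the counts of called genes among the members (3 to 5), the other clade B serpins (3 or 4), the proteases (8 to 11) and the serpins of other clades (2 or 3) stayed within 1.5 times those reported. Recentring the fold changes by 0.03 (log2) brought Serpinb5 past the threshold, at an adjusted p of 0.0482, which makes 5 members. Requiring a fold of at least 1.5 removed Serpinb11 from the members called, and left 1637 of the 3699 genes called in all, 993 lower and 644 higher. The value of Serpinb8 changed sign with its weaker transcript (-0.22), as given above, and passed in neither. The median difference that set the direction, -0.12 between genes with TGCACTGA and genes with no site, was -0.08 (-0.078) between genes with TGCACTG and all other genes, and -0.17 (-0.167) among genes counted at a base mean of 100 or more (both added after seeing the data). The 4 tested members with base means under 100 have standard errors of 0.28 to 0.39, so moderate changes could be missed: Serpinb5 did not pass at 1.79-fold.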

Other observations

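The genes that flank the serpin clusters did not share one direction. Beside the chromosome 1 cluster, Kdsr, a gene of sphingolipid synthesis, fell by 0.39 on the log2 scale (± 0.11 SE, adjusted p = 0.00257) and Vps4b, a gene of endosomal sorting, by 0.19 (± 0.06 SE, adjusted p = 0.00323) per the authors' deposited table. The apoptosis inhibitor gene Bcl2 (-0.05 ± 0.15 SE) and the phosphatase gene Phlpp1 (0.03 ± 0.08 SE) on the same side, and Dsel (0.09 ± 0.10 SE) on the other, did not pass. Beside Serpinb1a on chromosome 13, Foxc1, a transcription factor gene, had a log2 fold change of 0.68 ± 0.08 SE (adjusted p = 2.59e-15) and Gmds, a gene of fucose synthesis, 1.35 ± 0.10 SE (adjusted p = 1.62e-40) per the authors' deposited table, so both rose. Wrnip1, which lies between them and Serpinb1a, had -0.01 ± 0.08 SE (adjusted p = 0.949, base mean 2045) per the authors' deposited table, and Mylk4, also between them, had no adjusted p. Beyond Serpinb6a at the other end, Tubb2a, a tubulin gene, fell (-1.34 ± 0.06 SE, adjusted p = 6.91e-101), while Ripk1 and Bphl did not pass. Of these flanking genes, Foxc1, Gmds, Tubb2a, Wrnip1, Mylk4, Dsel, Ripk1 and Bphl were named after their values were seen.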
